A study of Gallus gallus with 89 samples.

Results

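CDX2 divided the mesodermal cells of the amniogenic somatopleure, a tissue of the chick embryo in which ectoderm and lateral plate mesoderm fold up as the future amnion, into a class of 38 CDX2-positive cells and a class of 15 CDX2-negative cells. These 53 cells were kept out of 89. A kept cell had at least 3000 genes with a read, at most 1 of the epithelial genes CDH1, TFAP2A and CLDN3, and fewer than 3 of the endothelial genes CDH5, FLI1, KDR and LMO2, where a gene counted as detected at 10 CPM or more, CPM being its reads scaled to a common total per cell. The gates took out 26 cells with an ectodermal profile and 5 with an endothelial one, and 5 further cells had too few genes. The classes were thus chosen by measured values, so the 8 genes used in the choice are described below without being counted as results.

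The cells came from wild-type, untreated embryos at embryonic day 1.5 (stage 10), as grafts of ectoderm and mesoderm pooled from more than 15 embryos and dissociated with trypsin. Each cell was caught on a Fluidigm C1 array, which isolates single cells in separate chambers, and sequenced as its own library. The titles carry the prefix X09 or X29, whose meaning the labels do not give, and no label ties a cell to an embryo, a side or a position along the body axis. The pool is 1 sample, so cells do not serve as replicates and the differences carry no p-values. Genes were instead called by the size of their difference, and intervals printed beside shares are exact Clopper-Pearson intervals (95%), which reflect the number of cells counted and nothing else. They are given for CDX2, for the HOX genes in the plot of their shares and for HOXB5, PITX1, SOX11 and NRP1.

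CDX2 encodes a homeodomain protein of the caudal family, which is known to act upstream of the HOX genes and to specify posterior identity in the trunk of vertebrate embryos. HOX genes lie in clusters, and members with higher paralogue numbers are in general expressed further towards the tail. Lateral plate mesoderm spans both head-ward and tail-ward levels of the embryo, and its somatic layer supplies the mesoderm of the amnion, the body wall and the limbs.

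Of the 53 kept cells, 71.7% detected CDX2 (interval 57.7 to 83.2%). The share was 78.05% in the 41 X09 cells (62.4 to 89.4%) and 50% in the 12 X29 cells (21.1 to 78.9%), and these intervals overlap. In CDX2-positive cells the lowest level was 17.3 CPM, the median 68.3 and the highest 180. Of the 15 CDX2-negative cells, 11 had no CDX2 read and the highest reached 6.18 CPM. Cell X09_C21, with 27 CDX2 reads, stood just above the limit and cell X09_C88, with 8 reads, just below it.

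Depth was alike in the classes. The median was 1435802.5 reads in CDX2-positive and 1464885 in CDX2-negative cells, although the shallowest cell, at 328645 reads, was CDX2-positive. The median number of genes with a read was 5780.5 and 5402, and mitochondrial genes took a median of 4.70% and 5.07% of reads. SPIN1W, a W-linked gene expressed in females, was detected in 8 CDX2-positive and 2 CDX2-negative cells, so each class held cells of female embryos.

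Lateral plate markers were detected in every kept cell, though never all of them, and surface ectoderm markers outnumbered them in 2 cells. PRRX1 and CDH11 were each detected in 97.4% of CDX2-positive and 93.3% of CDX2-negative cells. BMP5, a BMP ligand outside the marker list, was detected in 81.6% and 80%. Of 15 lateral plate markers, CDX2-positive cells detected 1 to 11 with a median of 9, and CDX2-negative cells 3 to 10 with a median of 7. The rule given below called HAND1, HAND2 and COL3A1, or 20%, higher in CDX2-positive cells and TWIST1 and OSR1, or 13.3%, in CDX2-negative cells. The shares over all measured genes were 4.30% and 3.73%. The other 10 markers met the rule in neither direction. Cell X09_C21 of the CDX2-positive class detected 1 lateral plate and 6 surface ectoderm markers, and cell X09_C41 of the CDX2-negative class detected 3 and 10. In all other kept cells surface ectoderm markers did not outnumber lateral plate markers. The CDX2-positive cells X09_C01, X09_C09, X09_C44 and X29_C88 still detected 8, 8, 9 and 8 surface ectoderm markers beside 9, 8, 10 and 8 lateral plate markers. The lowest number of surface ectoderm markers in a cell at the ectodermal gate was 8. X09_C01 and X29_C88 also had the most genes with a read, 9015 and 8850. Each of these CDX2-positive cells detected 1 ectodermal gate gene. Markers of surface ectoderm had a median of 3 per cell in each class, and endothelial and blood markers a median of 1.5 and 1. These lists hold the gate genes, whose number in a kept cell was capped, so their low counts are partly set by the gates. A single ectodermal gate gene was detected in 5 CDX2-positive cells and 1 CDX2-negative cell, and endothelial gate genes were detected in 7 and 5 cells.

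A gene counted as higher in a class when its mean level with 1 CPM added was at least 2 times that of the other class, its share of detecting cells was at least 20 percentage points higher, and the mean and share had the same direction in X09 and X29 cells. A gene was measured if 10% or more of the cells of either class detected it. Of 9700 measured genes, 417 were higher in CDX2-positive cells, or 4.30%, and 362 were higher in CDX2-negative cells, or 3.73%. Without cells X09_C21 and X09_C41 the counts were 440 and 367, with 377 and 322 genes shared. Without every kept cell that detected an ectodermal gate gene they were 440 and 454, with 351 and 330 shared. Divided at 50 CPM of CDX2 instead of 10, the classes gave 260 and 161. Of the called genes, 90 were detected in no CDX2-negative cell and 39 in no CDX2-positive cell. A gene goes undetected more easily in 15 cells than in 38, so these counts cannot be set against each other. No such count over all measured genes is given here, so they are not read as a result. With 15 CDX2-negative cells, a count of 0 allows a share of up to 20% by the limit of 3 cells, and the exact interval for 0 of 15 ends at 21.8%, so absence is not shown for any of the 90.

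Among the gene lists with 8 or more measured genes, the HOX genes had the highest share of calls. Of 17 measured HOX genes, 11, or 64.7%, were higher in CDX2-positive cells, against 4.30% over all genes. In CDX2-negative cells 1, or 5.88%, was higher, against 3.73%, and 5 met the rule in neither direction. The median log2 ratio of CDX2-positive to CDX2-negative means was 2.70 over the HOX genes and -0.04 over all measured genes. The HOX genes of paralogue groups 4 to 9 count as measured through the CDX2-positive class only. They could be called in that direction alone, so this share and this median follow in part from the choice of genes. The count was also 11 without cells X09_C21 and X09_C41. With a detection limit of 50 CPM it was 3, and with the classes divided at 50 CPM of CDX2 it was 7.

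HOXB5 had the largest difference in share. In CDX2-positive cells it ranged from 6.42 to 968 CPM with a median of 464, and it was detected in 37 of 38 cells, the exception being X09_C21. In CDX2-negative cells it was detected in 1 of 15, cell X09_C88 at 298 CPM, and the median was 0. No CDX2-negative cell reached the CDX2-positive median. The ratio of means was 20.7. Without X09_C88 no CDX2-negative cell detected HOXB5, and no ratio is given. The exact interval of the share was 86.2 to 99.9% in CDX2-positive and 0.169 to 31.9% in CDX2-negative cells.

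The other genes from paralogue group 4 upwards followed HOXB5 in direction. HOXB4 was detected in 71.1% of CDX2-positive cells and 6.67% of CDX2-negative cells, again only X09_C88, with medians of 44.01 and 0 CPM. HOXA5 was detected in 47.4% and 6.67%. HOXA6, HOXB6, HOXB7, HOXB8 and HOXB9 had no read in any CDX2-negative cell and were detected in 47.4%, 42.1%, 44.7%, 36.8% and 52.6% of CDX2-positive cells. Leaving out X29_C75 ended the call of HOXB6, since it was the only X29 cell that detected the gene. HOXA7 was detected in 23.7% and 0%, with a highest level of 1.43 CPM among CDX2-negative cells, and its log2 ratio turned to -0.14 when the endothelial gate was not applied. HOXB9 is the gene of highest paralogue number in the B cluster of this set. At the limit of 10 CPM it was detected in 20 of 38 CDX2-positive cells, 2 of them among the 6 X29 cells. HOXC9 was detected in 15.8% and 0%, and HOXA4 in 18.4% and 6.67%, both short of the rule.

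The genes of paralogue groups 1 to 3 were mixed. HOXA3 was detected in 47.4% of CDX2-positive and 53.3% of CDX2-negative cells. HOXA2, the anterior-most HOX gene of the hindbrain in vertebrates, went the other way, with 28.9% and 73.3% and medians of 0.359 and 27.8 CPM. HOXB1 was detected in 55.3% and 20%, HOXB3 in 47.4% and 13.3%, and HOXB2, which missed the rule, in 42.1% and 26.7%. The log2 ratio of HOXB1 turned to -0.75 with the classes divided at 50 CPM of CDX2. With CDX2 at its usual limit of 10 CPM, the HOX genes were grouped by paralogue number after their values were seen. In groups 1 to 3, 2 of 6 genes, or 33.3%, were higher in CDX2-positive cells, and in groups 4 to 9, 9 of 11, or 81.8%. The share over all genes was 4.30%. The median log2 ratios of these groups were 0.57 and 3.60. The second falls on HOXB8, which had no read in any CDX2-negative cell, so it depends on the added 1 CPM. Each gene of groups 4 to 9 passed the 10% limit for a measured gene through the CDX2-positive class only. Such genes could be called in that direction alone, so the contrast of the groups follows in part from the choice of genes.

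**Figure D1:**
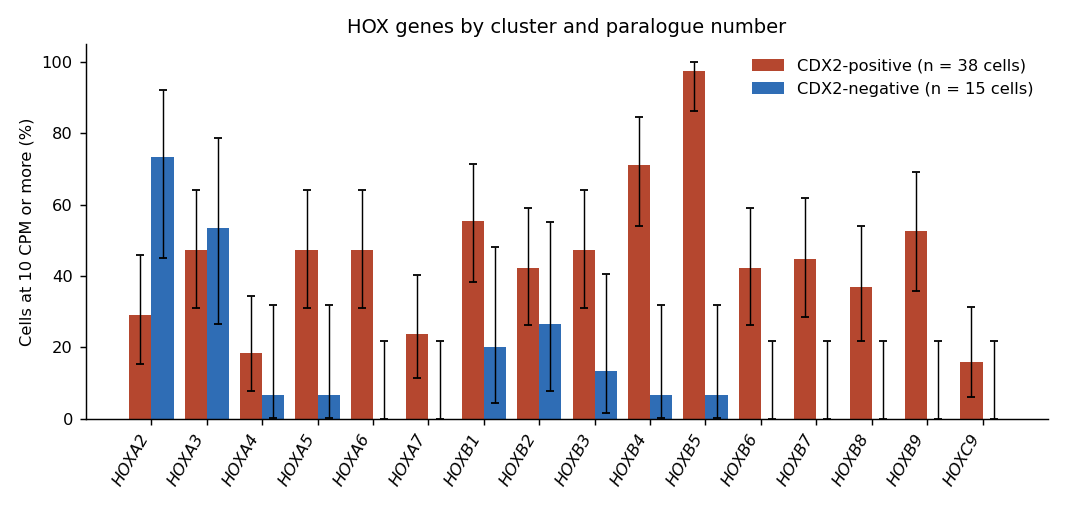
Share of cells (%) at 10 CPM or more for measured HOX genes, in 38 CDX2-positive (red) and 15 CDX2-negative (blue) kept cells; error bars are exact 95% intervals for counting error. HOXB5 is at 97.4% against 6.67%, while HOXA3 is at 47.4% against 53.3% and HOXA2 at 28.9% against 73.3%.

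The number of HOX genes per cell separated most cells of the classes. CDX2-positive cells detected 1 to 12 of the 17 with a median of 8, and 37 of 38 detected at least 5. CDX2-negative cells detected 1 to 8 with a median of 2, and 12 of 15 detected at most 3. The medians were 8 and 3 in X09 cells and 6.5 and 1.5 in X29 cells, and in X29 the ranges of 5 to 12 and 1 to 3 did not overlap. Genes of paralogue groups 4 to 9 count as measured through the CDX2-positive class only. The gap between the classes thus follows in part from the choice of genes. The 3 CDX2-negative cells with 5 or more HOX genes were X09_C54 with 5, X09_C67 with 6 and X09_C88 with 8. The first 2 had no CDX2 read.

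Among the 38 CDX2-positive cells the number of HOX genes had little relation to the level of CDX2. Across them Pearson's r between log2(CPM + 1) of CDX2 and the number of HOX genes was 0.11 and Spearman's rho 0.06. Without the 2 cells farthest from the median CDX2 level, r was -0.02. These are descriptions over cells of 1 pool, which share reagents and differ in depth, and the number of HOX genes had an r of 0.34 with the number of genes with a read.

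**Figure D2:**
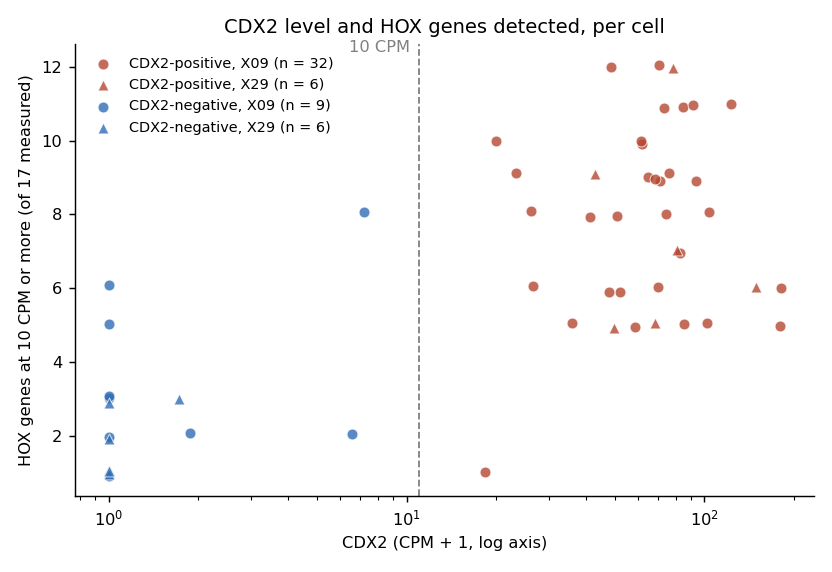
CDX2 level (CPM + 1, log axis) against the number of measured HOX genes at 10 CPM or more, 1 point per kept cell, circles X09 and triangles X29. Points are shifted slightly up or down to separate them. Of the CDX2-positive cells, 37 of 38 lie at 5 or more HOX genes, and 12 of 15 CDX2-negative cells lie at 3 or fewer. The genes of paralogue groups 4 to 9 count as measured through the CDX2-positive class only, so this gap follows in part from the choice of genes.

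CDX4, the other caudal gene in the table, was detected in 97.4% of CDX2-positive cells, with 0, 250 and 898 CPM as lowest, median and highest. In CDX2-negative cells it was detected in 40%, with a median of 0 and a highest level of 709 CPM in cell X09_C88. The ratio of means was 2.88, and 5.30 without that cell. Of 13 measured axial regulators other than HOX genes, CDX4 alone, or 7.69%, met the rule, against 4.30% over all genes. The other 12 did not. NR6A1, a nuclear receptor of trunk development, was detected in 89.5% and 100% of cells, and SALL4 in 94.7% and 86.7%.

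Among 118 measured genes whose symbols begin like those of developmental regulator families, 6, or 5.08%, were higher in CDX2-positive cells, near the 4.30% over all genes. A further 18, or 15.3%, were higher in CDX2-negative cells, against 3.73% over all genes. IDUA and TBXAS1, 1 on each side, share the letters but are enzymes. The regulators higher in CDX2-positive cells included PITX1, HAND1, HAND2 and ZEB1. PITX1, a homeodomain factor of the hindlimb and the posterior lateral plate, was detected in 81.6% of CDX2-positive cells, with 0, 108 and 315 CPM as lowest, median and highest. No CDX2-negative cell detected it, and the highest of them reached 0.470 CPM. The intervals of these shares were 65.7 to 92.3% and 0 to 21.8%. HAND1, a bHLH factor of lateral plate and extraembryonic mesoderm, was detected in all 38 CDX2-positive cells, at 18.9 to 178 CPM with a median of 70.6. It was detected in 4 of 15 CDX2-negative cells, with a median of 0 and a highest level of 175 CPM in X09_C41, and 1 CDX2-negative cell reached the CDX2-positive median. HAND1 was also detected in 88.5% of the cells at the ectodermal gate.

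ZEB1, a repressor of epithelial genes, was detected in 76.3% of CDX2-positive and 26.7% of CDX2-negative cells, with medians of 36.2 and 0 CPM. HAND2 met the rule narrowly, at 97.4% and 66.7% of cells and a ratio of 2.04, and its call ended without any of X09_C02, X09_C41, X09_C48, X09_C58, X09_C68, X29_C17 or X29_C53. GATA4, a zinc finger factor of heart and lateral plate, was detected in 57.9% and 6.67% of cells but in none of the 12 X29 cells, and so did not meet the rule. GATA6 and GATA5 were detected in 73.3% or more of each class and missed it too.

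The regulators higher in CDX2-negative cells included IRX1, IRX5, IRX6, SOX4, SOX9, SOX11, FOXC2, FOXN2, TWIST1, OSR1, HEY2, ETV1, ETV5, KLF7, KLF12 and SALL1. SOX11, a SoxC factor of progenitor cells, was detected in all 15 CDX2-negative cells, at 29.6 to 153 CPM with a median of 77.4. In CDX2-positive cells it ranged from 0 to 36.9 CPM with a median of 3.59, and 5 of 38 reached the lowest CDX2-negative value. The ratio of means was 6.48 in favour of CDX2-negative cells, and the intervals of the shares were 78.2 to 100% and 21.8 to 54.01%. TWIST1, a bHLH factor of mesenchyme, was detected in 80% of CDX2-negative and 21.1% of CDX2-positive cells, with medians of 24.6 and 1.61 CPM. EBF3, a helix-loop-helix factor outside those families, was detected in 66.7% and 0%, with medians of 51.2 and 0 CPM.

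IRX6 was detected in 66.7% of CDX2-negative and 5.26% of CDX2-positive cells. FOXC2, known from paraxial and head mesenchyme, was detected in 53.3% and 0% of cells, and OSR1, a marker of intermediate and lateral plate mesoderm, in 33.3% and 0%. ISL1, a LIM homeodomain factor of the second heart field, was detected in 53.3% of CDX2-negative and 7.89% of CDX2-positive cells, with medians of 18.2 and 0 CPM. It was also detected in 61.5% of the cells at the ectodermal gate. Several calls turned on few cells. With each of the 53 cells left out in turn, the call of KLF7 was kept in 15 runs, that of FOXN2 in 45 and that of SOX9 in 49. The call of OSR1 ended without X29_C55, and that of SOX4 without X09_C41, X09_C68 or X29_C55.

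**Figure D3:**
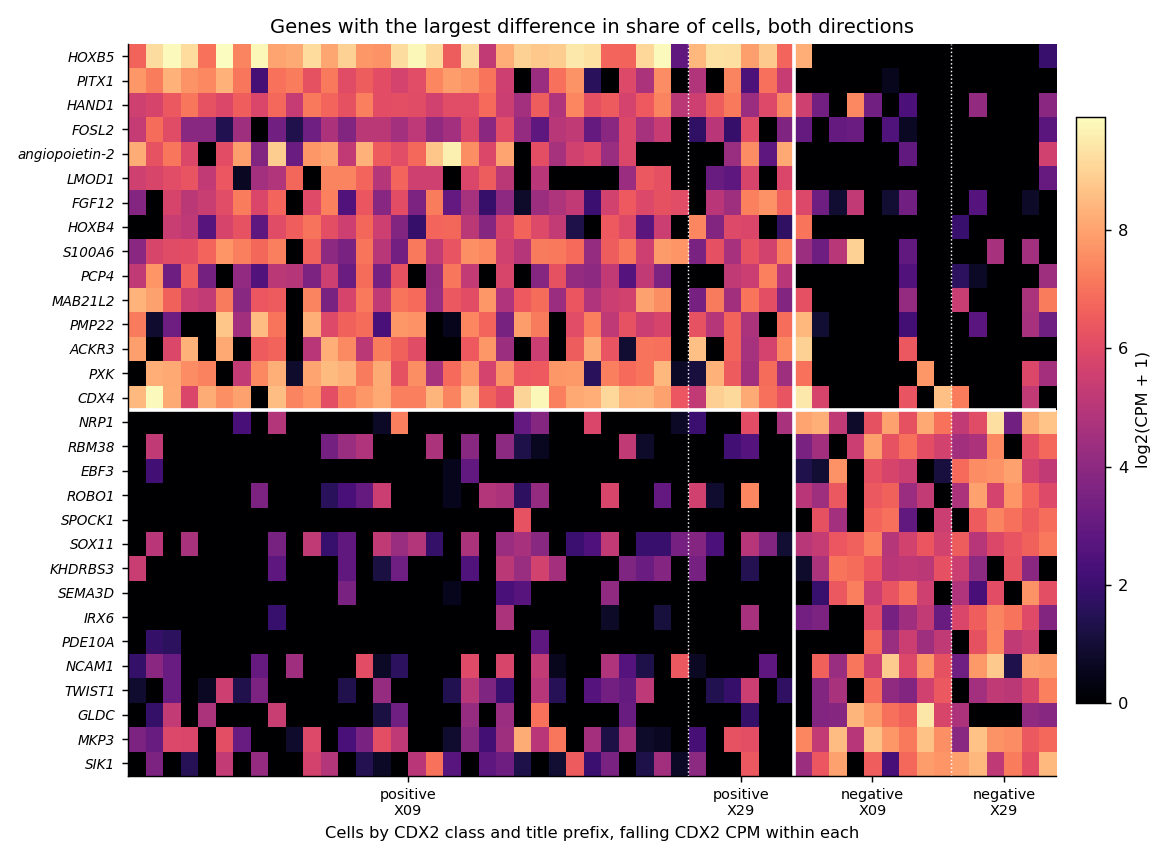
Level, as log2(CPM + 1), of the 15 genes per direction whose shares differed most between the classes (rows) in the 53 kept cells (columns), grouped by CDX2 class and title prefix and ordered by falling CDX2 level. These genes were picked for their difference; the first CDX2-negative column, X09_C88, detects 10 of the 15 genes of the upper block.

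The 15 genes with the largest difference in share towards CDX2-positive cells held HOXB5, HOXB4, CDX4, PITX1 and HAND1 beside genes of vessels, muscle and signalling. A CDX2-positive cell detected 4 to 15 of the 15 with a median of 13, and a CDX2-negative cell 0 to 10 with a median of 1. Because the 15 were picked from these same cells for their difference, this gap follows in part from the choice. LMOD1, a leiomodin that nucleates actin filaments in smooth muscle, was detected in 65.8% of CDX2-positive cells, with a median of 35.0 and a highest level of 167 CPM. No CDX2-negative cell detected it. FOSL2, an AP-1 subunit, was detected in 71.1% and 0%, with 8 CPM as the highest CDX2-negative level. FGF12, an intracellular FGF homologue that binds sodium channels, was detected in 78.9% and 13.3%, and in 84.6% of the cells at the ectodermal gate.

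The remaining genes of that set were PXK, MAB21L2, PMP22, PCP4, S100A6 and ACKR3. MAB21L2 was detected in 92.1% and 33.3% of cells, PXK in 84.2% and 26.7%, PMP22, a membrane protein of myelin and epithelia, in 71.1% and 13.3%, and PCP4, a calmodulin regulator, in 65.8% and 6.67%. S100A6, a calcium-binding protein, was detected in 94.7% and 33.3%. Its ratio of means of 2.21 rose to 10.2 without X09_C41, which held the highest level, 495 CPM. ACKR3, a scavenging receptor for CXCL12, was detected in 71.1% and 13.3%, and its ratio of 2.49 became 14.3 without X09_C88.

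Of 14 measured angiogenic factors, 4, or 28.6%, were higher in CDX2-positive cells, against 4.30% over all genes. In CDX2-negative cells 0 were higher, against 3.73% over all genes, and the median log2 ratio was 1.76. Angiopoietin-2, a ligand of the TIE2 receptor, was detected in 76.3% of CDX2-positive cells, with a median of 62.2 and a highest level of 781 CPM. Among CDX2-negative cells 1 of 15 detected it, at 47.3 CPM. CXCL12, a chemokine that attracts endothelial and progenitor cells, was detected in 86.8% and 53.3% with medians of 207 and 15.5 CPM. VEGFA was detected in 57.9% and 20%, and ANGPTL1 in 44.7% and 6.67%. FLT1, a VEGF receptor, was detected in 55.3% and 6.67%, with medians of 14.04 and 0 CPM. The log2 ratio of FLT1 turned to -0.05 when the endothelial gate was not applied. Of the endothelial and blood list 4 genes were measured, and none was higher in CDX2-positive cells. PECAM1 was detected in 26.3% and 13.3%, and EGFL7 was higher in CDX2-negative cells at 44.7% and 66.7%, a call kept in 43 of 53 leave-one-out runs.

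Genes found in nearly every cell could not meet the rule on shares and were compared by level. Of 1431 genes with a symbol detected in over 80% of each class, 11 were at least 2 times higher in CDX2-positive and 17 in CDX2-negative cells. The means of these genes also had the same direction within X09 and within X29 cells. MSX1, a homeodomain target of BMP signalling, ranged from 57.8 to 5350 CPM in CDX2-positive cells with a median of 2207. In CDX2-negative cells it ranged from 0.519 to 914 CPM with a median of 135, and none of them reached the CDX2-positive median. The ratio of means was 9.16.

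KRT7, a simple epithelial keratin, ranged from 3892 to 9743 CPM in CDX2-positive cells with a median of 7091. In CDX2-negative cells it ranged from 366 to 13376 CPM with a median of 1436, and the only CDX2-negative cell at or above the lowest CDX2-positive value was X09_C41. The ratio was 2.68 with that cell and 3.79 without it. KRT18 had medians of 866 and 282 CPM, and KRT19 of 2281 and 621 CPM. The KRT19 ratio of 2.41 became 4.15 without X09_C41. TKT, the transketolase of the pentose phosphate pathway, had medians of 505 and 197 CPM, and PERP2 of 492 and 92.1 CPM.

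The widely detected genes that were higher in CDX2-negative cells included cytoskeletal and guidance genes. VIM, the intermediate filament of mesenchyme, had a median of 403 CPM in CDX2-negative and 139 CPM in CDX2-positive cells, with ranges of 7.79 to 1254 and 0 to 628 and a ratio of 3.06. STMN1, which destabilises microtubules, ranged from 1305 to 6436 CPM with a median of 3465 in CDX2-negative cells, and from 433 to 2548 with a median of 1784 in CDX2-positive cells. None of the 38 CDX2-positive cells reached the CDX2-negative median of STMN1. Meis2a.2, of the MEIS family of HOX cofactors, had medians of 412 and 97.0 CPM and a ratio of 3.29, and SRGAP1, an effector of slit and ROBO signalling, 259 and 112 CPM and a ratio of 3.05. BAZ2B had a ratio of 3.01 and HSPA2 of 2.82.

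**Figure D4:**
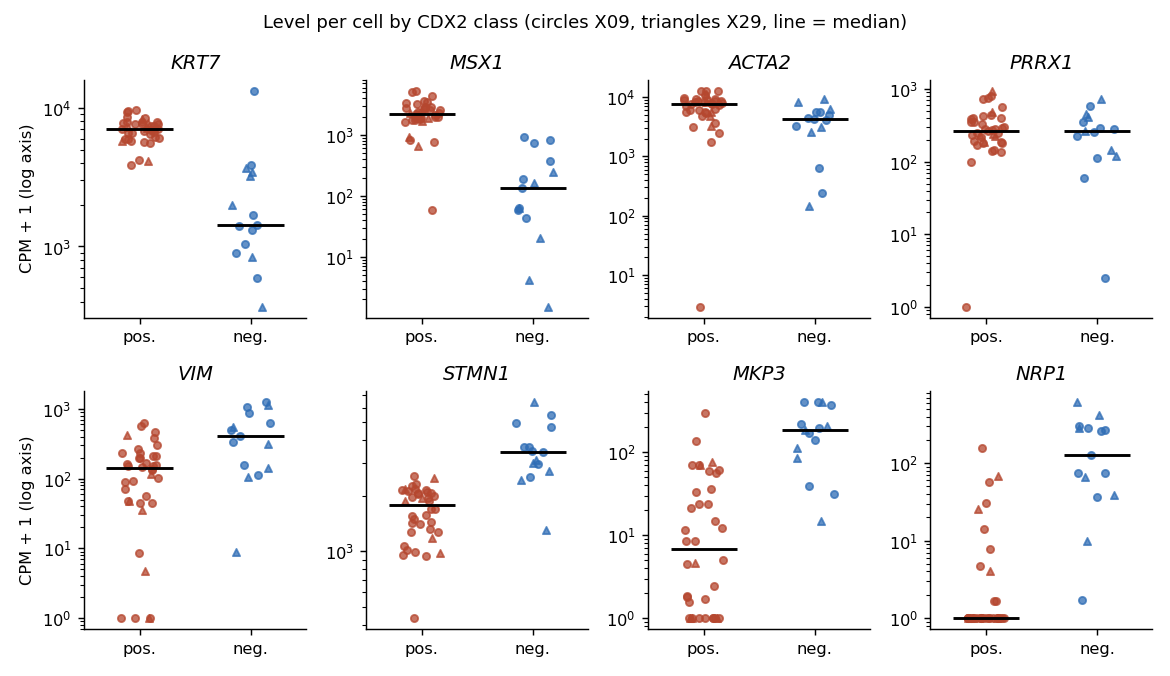
Level (CPM + 1, log axis) of 8 genes in each kept cell by CDX2 class (pos. and neg.), circles X09 and triangles X29, with black lines at class medians. KRT7 and MSX1 sit higher in CDX2-positive cells and VIM, STMN1, MKP3 and NRP1 in CDX2-negative cells, while PRRX1 has medians of 265 and 264 CPM.

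Of 34 measured guidance genes, 7, or 20.6%, were higher in CDX2-negative cells, against 3.73% over all genes. In CDX2-positive cells 0 were higher, against 4.30% over all genes, and the median log2 ratio was -0.88. NRP1, a co-receptor for semaphorins and VEGF, had the largest difference in share towards CDX2-negative cells. It was detected in 86.7% of CDX2-negative cells, with 0.727, 125 and 617 CPM as lowest, median and highest. In CDX2-positive cells it was detected in 15.8%, with a median of 0 and a highest level of 154 CPM. The intervals of the shares were 59.5 to 98.3% and 6.02 to 31.3%. The ratio of means was 18.2, and 29.01 without cell X09_C30, the CDX2-positive cell with that highest level.

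The receptors ROBO1 and ROBO2, which bind slit ligands, were detected in 86.7% and 60% of CDX2-negative cells and in 21.1% and 18.4% of CDX2-positive cells. SEMA3D, a secreted semaphorin, was detected in 66.7% and 5.26%, SEMA6A in 53.3% and 2.63%, SEMA5B in 46.7% and 7.89% and the ligand EFNB2 in 46.7% and 7.89%. Of the cells at the ectodermal gate, 69.2% detected SEMA3D and 61.5% SEMA5B. SLIT3, a ROBO ligand, was at 86.7% and 76.3%, and UNC5C, a netrin receptor, at 66.7% and 89.5%, both short of the rule.

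Of 14 measured FGF genes, 5, or 35.7%, were higher in CDX2-negative cells, against 3.73% over all genes. In CDX2-positive cells 1, FGF12, or 7.14%, was higher, against 4.30%, and the median log2 ratio was -0.69. The 5 were FGFRL1, SPRY1, SPRY2, ETV1 and ETV5. SPRY1 and SPRY2 encode feedback inhibitors of FGF signalling. SPRY1 was detected in 40% and 0% of cells, and the call of SPRY2, at 40% and 15.8%, was kept in 47 of 53 leave-one-out runs. The ETS factors ETV1 and ETV5, known as transcriptional targets of FGF signalling, were detected in 66.7% and 73.3% of CDX2-negative cells and in 15.8% and 21.1% of CDX2-positive cells. FGFRL1, a receptor without a kinase domain, was detected in 60% and 26.3%. MKP3, a phosphatase of ERK that FGF signalling is known to induce, was not on the list; it was detected in all 15 CDX2-negative cells, at 13.7 to 406 CPM with a median of 184. In CDX2-positive cells it was detected in 44.7%, with a median of 5.77 and a highest level of 294 CPM, and 1 cell reached the CDX2-negative median. The receptors FGFR1 and FGFR3 were detected in 89.5% or more of each class, with ratios of means of 0.951 and 1.17.

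Of 18 measured hedgehog and Notch genes, 4, or 22.2%, were higher in CDX2-negative and 0 in CDX2-positive cells. The shares over all genes were 3.73% and 4.30%. All 4 called genes belong to the Notch pathway: the ligands DLL1 (33.3% and 0% of cells) and JAG1 (46.7% and 15.8%), the glycosyltransferase LFNG (46.7% and 18.4%) and the target HEY2 (66.7% and 21.1%). The call of LFNG ended without X29_C89. For HEY2 no CDX2-positive cell reached the CDX2-negative median of 41.5 CPM. GLI3, the hedgehog effector, was detected in 92.1% or more of each class.

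Of 46 measured matrix genes, 9, or 19.6%, were higher in CDX2-negative cells, against 3.73% over all genes. The 3 higher in CDX2-positive cells, or 6.52%, were near the 4.30% over all genes. The median log2 ratio over the 46 was -0.11. SMOC1 and SMOC2, secreted calcium-binding matrix proteins, were each detected in 53.3% of CDX2-negative cells, against 10.5% and 0% of CDX2-positive cells. SPOCK1, a testican proteoglycan, was detected in 66.7% and 2.63%; the CDX2-positive share rests on the single cell X09_C34, without which no CDX2-positive cell detected it. COL3A1, a fibrillar collagen, went the other way, at 94.7% and 60% of cells. Its levels were 0, 432 and 1484 CPM in CDX2-positive and 0, 35.99 and 244 CPM in CDX2-negative cells as lowest, median and highest, a ratio of 8.12, and no CDX2-negative cell reached the CDX2-positive median.

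Of 32 measured adhesion and epithelial-mesenchymal transition genes, 6, or 18.8%, were higher in CDX2-negative cells, against 3.73% over all genes. In CDX2-positive cells 2, or 6.25%, were higher, near the 4.30% over all genes. CDH2, or N-cadherin, was detected in 93.3% of CDX2-negative and 57.9% of CDX2-positive cells, with medians of 211 and 18.9 CPM and a ratio of 4.35. NCAM1, an immunoglobulin-type adhesion protein, was detected in 80% and 21.1%, with medians of 99.8 and 0 CPM, and no CDX2-positive cell reached the CDX2-negative median. EPCAM, an epithelial adhesion protein, also met the rule at 66.7% and 44.7%. Its ratio of 2.43 became 1.48 without X09_C41 and 3.73 without X09_C01, and its call was kept in 43 of 53 leave-one-out runs. The list thus held epithelial and mesenchymal members on the CDX2-negative side.

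Of 26 contractile genes, 2, or 7.69%, were higher in CDX2-positive cells (LMOD1 and TAGLN). In CDX2-negative cells 3, or 11.5%, were higher (ACTA1, DES and MYH15). The shares over all genes were 4.30% and 3.73%. ACTA2, smooth muscle actin, was detected in 97.4% and 100% of cells with medians of 7753 and 4253 CPM and a ratio of 1.73. DES, the muscle intermediate filament, was detected in 2.63% and 40%. The call of ACTA1 ended without X29_C60 and that of TAGLN was kept in 43 of 53 leave-one-out runs. Of 14 cardiomyocyte markers, MYL3, or 7.14%, was higher in CDX2-positive cells, and MYH15, MYL2 and RYR2, or 21.4%, in CDX2-negative cells. TNNT2 and TNNC1 were detected in 97.4% or more of each class. The calls of MYL3 and RYR2 ended without X29_C75 and X29_C89 respectively.

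The WNT, glycolysis, BMP and TGF-beta, retinoid and dissociation stress groups had at most 1 call per direction. The shares over all genes were 4.30% and 3.73%, so lists this short hold few calls in any case, and these counts do not set the groups apart. None of 29 WNT genes and none of 17 glycolysis genes met the rule. Of 29 BMP and TGF-beta genes 1, or 3.45%, was higher in CDX2-positive cells, SMAD9, whose call was kept in 45 of 53 leave-one-out runs. Of 10 retinoid genes, CRABP-I, which binds retinoic acid, was higher in CDX2-positive and RDH10, a retinol dehydrogenase, in CDX2-negative cells. Each makes up 10% of the list, against 4.30% and 3.73% over all genes. The call of RDH10 was kept in 48 leave-one-out runs. ALDH1A2, the main enzyme of retinoic acid synthesis in early mesoderm, was detected in 73.7% and 86.7%. Of 19 dissociation stress genes only FOSL2, or 5.26%, met the rule, higher in CDX2-positive cells.

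Of 37 S-phase genes 1, or 2.70%, was called, CASP8AP2 in CDX2-negative cells, a call kept in 48 of 53 leave-one-out runs. Of 41 genes of G2 and mitosis, KIF23, CENPE and G2E3, or 7.32%, were higher in CDX2-positive cells and CBX5, or 2.44%, in CDX2-negative cells. The shares over all genes were 4.30% and 3.73%, and the median log2 ratio over the 41 was 0.55. The calls of KIF23 and G2E3 were kept in 36 and 31 of the 53 leave-one-out runs, that of CENPE ended without X29_C26, and that of CBX5 without X09_C88 or X29_C09. At least 1 intermediate mesoderm marker was detected in 11 of 15 CDX2-negative and 7 of 38 CDX2-positive cells, and at least 1 paraxial mesoderm marker in 8 and 11 cells. At least 1 intermediate mesoderm marker was also detected in 22 of the 26 cells at the ectodermal gate. Detection of that list is thus not particular to mesodermal cells here. Of 3 measured intermediate mesoderm markers, OSR1 and SALL1, or 66.7%, were higher in CDX2-negative cells, against 3.73% over all genes. SALL1 was at 53.3% and 18.4%, and it was also detected in 57.7% of the cells at the ectodermal gate. Of 3 measured paraxial markers, FOXC2 was higher in CDX2-negative and MEOX1, a somite gene, in CDX2-positive cells, the latter at 28.9% and 6.67%. Each makes up 33.3% of that list, against 3.73% and 4.30% over all genes. Lists of 3 genes give coarse shares. MYF5, a skeletal muscle factor, was detected in 2.63% of CDX2-positive and 20% of CDX2-negative cells.

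**Figure D5:**
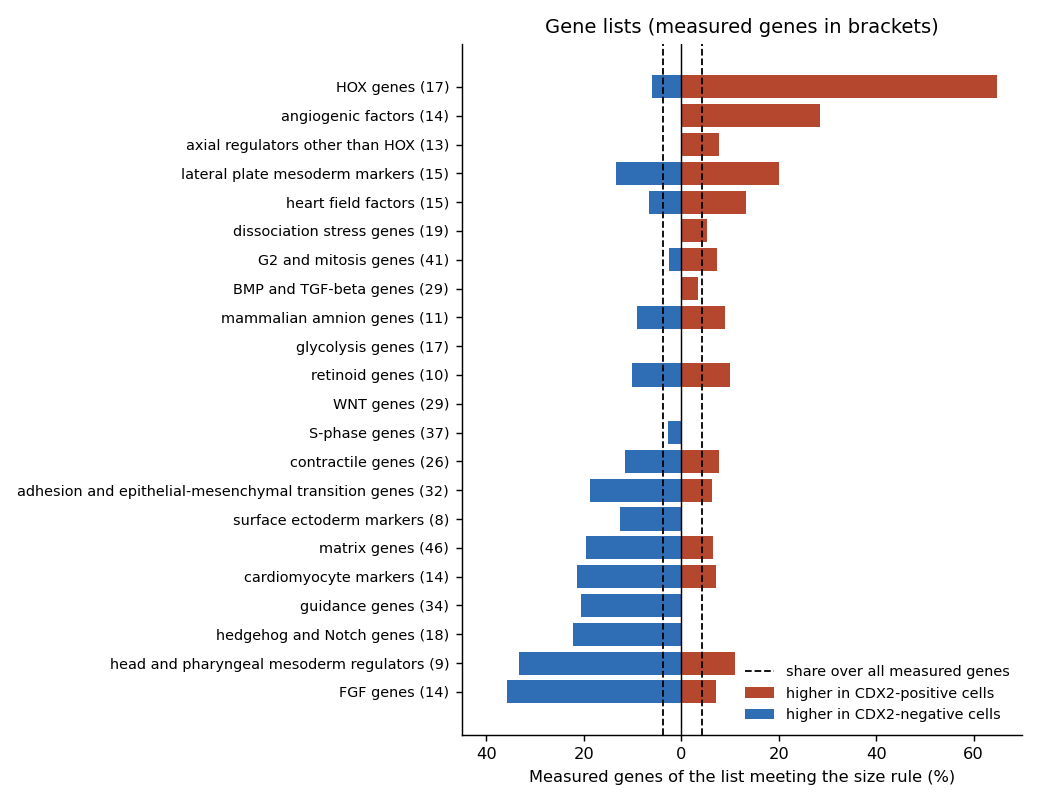
Percent of measured genes of each list that met the size rule, higher in CDX2-positive cells to the right (red) and in CDX2-negative cells to the left (blue), with the number measured in brackets; dashed lines mark the shares over all 9700 measured genes, 4.30% and 3.73%. HOX genes reach 64.7% to the right and FGF genes 35.7% to the left. HOX genes of paralogue groups 4 to 9 count as measured through the CDX2-positive class only.

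As whole profiles the classes were close. The median Pearson correlation of log2(CPM + 1) between cells was 0.626 within the CDX2-positive class, 0.576 within the CDX2-negative class and 0.585 between them. A CDX2-negative cell detected 6 to 15 of the 15 genes with the largest difference in its own direction, with a median of 13, and a CDX2-positive cell 0 to 8 with a median of 2. The set was picked from these same cells for that difference, so the gap in counts follows in part from the choice. The remaining genes of that set beside those named above were RBM38, KHDRBS3, PDE10A, GLDC and SIK1, detected in 60% to 86.7% of CDX2-negative and 0% to 31.6% of CDX2-positive cells. Cell X09_C88, whose 6.18 CPM of CDX2 lay under the limit, detected 8 HOX genes, 10 of the 15 genes leading in CDX2-positive cells and 6 of the 15 leading in CDX2-negative cells.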

How the data were processed

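The authors deposited 1 table of raw counts, with a column for each of 89 cells. They used, per the submitters' processing notes, HISAT2 2.1.0, the GRCg6a build and featureCounts. Settings, strand included, were not given in the sources used here, so reads of a gene and an overlapping or antisense partner cannot be told apart. Without molecular identifiers, amplified copies were counted. The 3 spike-in rows were left out. Of 13823 gene rows, 3371 carry only an Ensembl identifier and are not named. CPM was calculated here from the deposited counts, against each cell's total over genes. A fold divides mean CPM of the classes after adding 1 CPM to each, which understates differences of low genes, and none is given against a class without a detecting cell. Median log2 ratios over gene lists do include genes without a detecting cell in 1 class. CPM is not scaled to gene length, so levels are compared between cells, not between genes.

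The classes, gene lists and rules were chosen with earlier results of these data known. Genes named are the 15 per direction with a symbol and the largest difference in share; per list at most 3 called per direction and 2 others with the highest mean; called regulators by the start of their symbol; and the 5 per direction with the largest ratio among widely detected genes. STMN1, KRT19, GATA4, FLT1 and some list members were added after their values were seen. Doublets were not called; per the labels' protocols captures were photographed. Scripts ran on simulated counts, in Python 3.11.15, with edgeR 4.0.16 for TMMwsp factors only. Alternatives covered detection limits, the CDX2 limit, gates, scaling, depth, the size rule, prefixes and each cell left out. Promoter motifs were not analysed here, and some genes that these rules name are left out of the text.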

Additional observations from a re-analysis of the deposited data

Results flagged for a closer look

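CDX2 was also detected in cells that the comparison left out, a signal in data outside the main measurement. Of the 26 cells at the ectodermal gate, 7 detected it, or 26.9% (exact interval 11.6 to 47.8%), and the highest of them, at 225 CPM, lay above the highest CDX2-positive mesodermal cell at 180 CPM. Those 26 cells detected 0 to 6 of the 17 measured HOX genes with a median of 2, and HOXB5 in 3.85% of cells. The 7 that detected CDX2 had 1 or 2 HOX genes each, and the cell with 6, X29_C54, had no CDX2 read. Of the 5 cells at the endothelial gate, 1 detected CDX2, or 20% (0.505 to 71.6%), at 16.1 CPM. Of the 5 cells with fewer than 3000 genes with a read, 2 detected it, or 40% (5.27 to 85.3%), both with the X29 prefix.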

How the results depend on the processing

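The share of CDX2-positive cells was 71.7% and lay between 71.2% and 73.1% when each cell was left out in turn. It was 49.1% with the classes divided at 50 CPM of CDX2, and 50% in X29 cells alone. The counts of 417 and 362 genes ranged from 397 to 477 and from 307 to 405 when 1 cell was left out, the HOX count of 11 from 10 to 12, and the calls kept among 100 named genes from 90 to 100, with 75 kept in every such run. With a detection limit of 50 CPM for the genes compared, 236 genes were higher in CDX2-positive cells, 188 of them shared, with 3 HOX genes and 62 named calls. Dividing at 50 CPM of CDX2 gave 260 and 161 genes, of which 118 and 93 were shared, with 7 HOX genes and 48 named calls; this moves 12 cells between classes. A ratio of 3 with 30 percentage points, which is stricter by construction, gave 140 and 110. X09 cells alone gave 727 and 548, sharing 273 and 229. X29 cells alone, 6 against 6, gave 997 and 949, sharing 270 and 236. Both of these runs dropped the condition on prefixes, without which all kept cells gave 508 and 428. Fewer cells also make coarser shares, and what raised the counts was not tested. Division at 50 CPM of CDX2 turned the log2 ratio of HOXB1 to -0.75, LAMA5 to -0.044, MFAP5 to -1.33 and TAGLN to -0.26, and leaving out the endothelial gate turned FLT1 to -0.051, HOXA7 to -0.14 and LAMA5 to -0.082; the cause was not tested. Over all alternatives but leave-one-out, 77 planned values and 9 added after the data were seen lay within a fixed fold of the main count or inside the share's interval. Values with all cells thinned to 328645 reads and with TMMwsp factors were among them. Of the remaining planned values 9 were weaker, 4 stronger and 2 outside that interval. A like count need not hold the same genes. With no endothelial gate gene detected, the counts were 454 and 491, sharing 278 and 250. No paired analysis was possible because the pool is 1 sample and no result comes from a test. With 15 CDX2-negative cells, shares carry wide intervals and a small share there would go undetected.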
